A study of Mus musculus with 35 samples.

Results

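The 10 genes described here carry iron into, through and out of cells or store it, and were measured in mouse hippocampus after pilocarpine-induced status epilepticus (SE), a prolonged seizure. They were the iron carrier Trf, the transferrin receptor Tfrc and its partner Hfe, the ferrireductases Steap2 and Steap3, the importer Slc11a2, the exporter Slc40a1, the ferritin subunits Fth1 and Ftl1, and the haem-degrading enzyme Hmox1. The members were taken by symbol from the mRNA count table, in which 11 of 43629 Ensembl identifiers carry these symbols. Trf has 2 of them, and the one with 0 counts in every library was left out of the values, so that 1 identifier stands for each of the 10 genes. These 10 had counts in every library. On build NCBIM37 the uptake genes lie at chr9:103106331-103132774 (Trf), chr16:32609006-32632880 (Tfrc), chr13:23793903-23802723 (Hfe), chr5:5664831-5694578 (Steap2), chr1:122087334-122169282 (Steap3) and chr15:100218329-100255503 (Slc11a2). The exporter lies at chr1:45964915-45982439 (Slc40a1), the ferritins at chr19:10057193-10059582 (Fth1) and chr7:52713314-52715254 (Ftl1), and the haem-degrading enzyme at chr8:77617490-77624495 (Hmox1).

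C57BL/6j mice of both sexes, 6 to 7 weeks old, received intraperitoneal pilocarpine, a muscarinic agonist, at a first dose of 350 mg per kg, or saline vehicle. By the study's methods scopolamine, a muscarinic antagonist that limits effects outside the brain, was given before pilocarpine and vehicle alike, and further small doses of pilocarpine followed until seizures of a set stage were reached. PolyA RNA of the left hippocampus was sequenced in 19 libraries, which fall into 2 control and 3 SE libraries at 1 h, 3 control and 2 SE libraries at 8 h, and 3 SE libraries each at 36 h and at 120 h that share 1 set of 3 control libraries. The shared controls are labelled 36-120 hour in their source names and t0 in their titles, so the labels do not settle when they were taken. The labels name no transgene, the sex of each library was not used, and the labels do not say whether each library came from a separate mouse, so the p-values measure the spread between these libraries. Batch, as the labels name it, was G511 and G369 at 1 h, G511 for 1 control and G317 for the other libraries at 8 h, and G545 at 36 h and 120 h.

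Iron travels between cells bound to transferrin, which the transferrin receptor carries into endosomes, where STEAP reductases turn ferric into ferrous iron and the transporter encoded by Slc11a2 passes it to the cytosol. There it is used, stored in the ferritin shell of heavy (Fth1) and light (Ftl1) chains, or released through ferroportin (Slc40a1), the only known exporter of ferrous iron in vertebrates. Much of this control lies after transcription. When iron is scarce, iron-regulatory proteins bind hairpins called iron-responsive elements, which stops translation where the hairpin lies before the coding sequence and stabilises the mRNA where it lies after it, so that mRNA levels alone do not report ferritin or ferroportin protein.

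The hairpins are shown because they are the known regulatory sequence shared by the ferritins, ferroportin and the transferrin receptor. Transcripts of the GENCODE M1 annotation on build NCBIM37 were searched for the letters CNNNNNCAGTGN, with the last letter not G, followed by 5 bases that pair with the 5 bases before the loop CAGTGN, G with T pairing allowed, on the transcript strand only. Matches of 25 bases were found in the UTRs of 4 of the 10 members, and each was identical in the genome sequence. The capitals mark the loop.
Fth1, 5′ UTR, chr19:10057224-10057248, plus strand: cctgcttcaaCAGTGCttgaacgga
Ftl1, 5′ UTR, chr7:52715151-52715175, minus strand: cttgcttcaaCAGTGTttgaacgga
Slc40a1, 5′ UTR, chr1:45982312-45982336, minus strand: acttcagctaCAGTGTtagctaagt
Tfrc, 3′ UTR, chr16:32631307-32631331, plus strand: ttatcggaagCAGTGCcttccataa
Tfrc, 3′ UTR, chr16:32631686-32631710, plus strand: ttatcgggagCAGTGTcttccataa
Tfrc, 3′ UTR, chr16:32631751-32631775, plus strand: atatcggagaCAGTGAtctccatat
Tfrc, 3′ UTR, chr16:32631798-32631822, plus strand: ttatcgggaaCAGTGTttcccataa
Among 22754 genes searched the same letters with the full pairing occurred in a 5′ UTR of 22 (0.0967%) and in a 3′ UTR of 93 (0.409%). In the other members, Slc11a2 included, these letters with the full pairing were not found in the annotated UTRs. Whether the letters occur there without full pairing was not recorded, and the search says nothing of other forms of the element.

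Counts per library ran from 8503816 to 28465548. Levels are given as CPM, the count per 1000000 counts of the library, with library totals scaled by the trimmed mean of M-values (TMM) over the 19 libraries. The 15 oligodendrocyte, 7 astrocyte and 8 hippocampal neuron markers were above 0 in every library, as the tissue label would have it. Markers of choroid plexus epithelium, the secretory lining of the ventricles that lies next to the hippocampus, set some libraries apart. The summed level of its 16 markers lay between 67.1 and 138 CPM in the 36-120 h controls and between 70.6 and 84.1 CPM in 120 h SE replicates 1 and 2. It was 7366 and 5977 CPM in 36 h SE replicates 1 and 2 against 72.7 CPM in replicate 3, and 6719 CPM in 120 h SE replicate 3. At 1 h it ran from 2836 to 5975 CPM, and at 8 h from 509 to 4136 CPM. Of the 16 markers, Ttr alone held 6799 of the 7366 CPM and 6052 of the 6719 CPM. Some fits below take the mean log2 CPM of these markers as a covariate. At 1 h that mean was 5.498 and 5.872 in the controls and 5.915, 6.011 and 6.446 in SE. Such a fit therefore cannot tell the markers from an SE effect at 1 h. At 36 h an SE effect in such a fit rests mainly on SE replicate 3, and at 120 h on SE replicates 1 and 2. In bulk tissue, fewer cells of a type and less RNA per cell cannot be told apart.

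Per kb of exon, the ferritin heavy chain stood far above the other members in the 8 control libraries, with a median of 1673 CPM per kb and a range of 1249 to 2180. Ftl1 followed with a median of 41.4 CPM per kb, Tfrc with 15.7 and Slc11a2 with 7.90. The ferritin levels depend on how reads shared with gene copies or overlapping models were counted, as described below. The remaining members had medians of 2.52 CPM per kb for Slc40a1, 2.40 for Hmox1, 1.503 for Steap2, 1.39 for Hfe, 1.01 for Trf and 0.949 for Steap3, and their ranges over the controls overlapped from one to the next. Trf rested on 9 to 223 counts a library and Steap3 on 31 to 150, while Fth1 had 10674 to 44460.

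**Figure D1:**
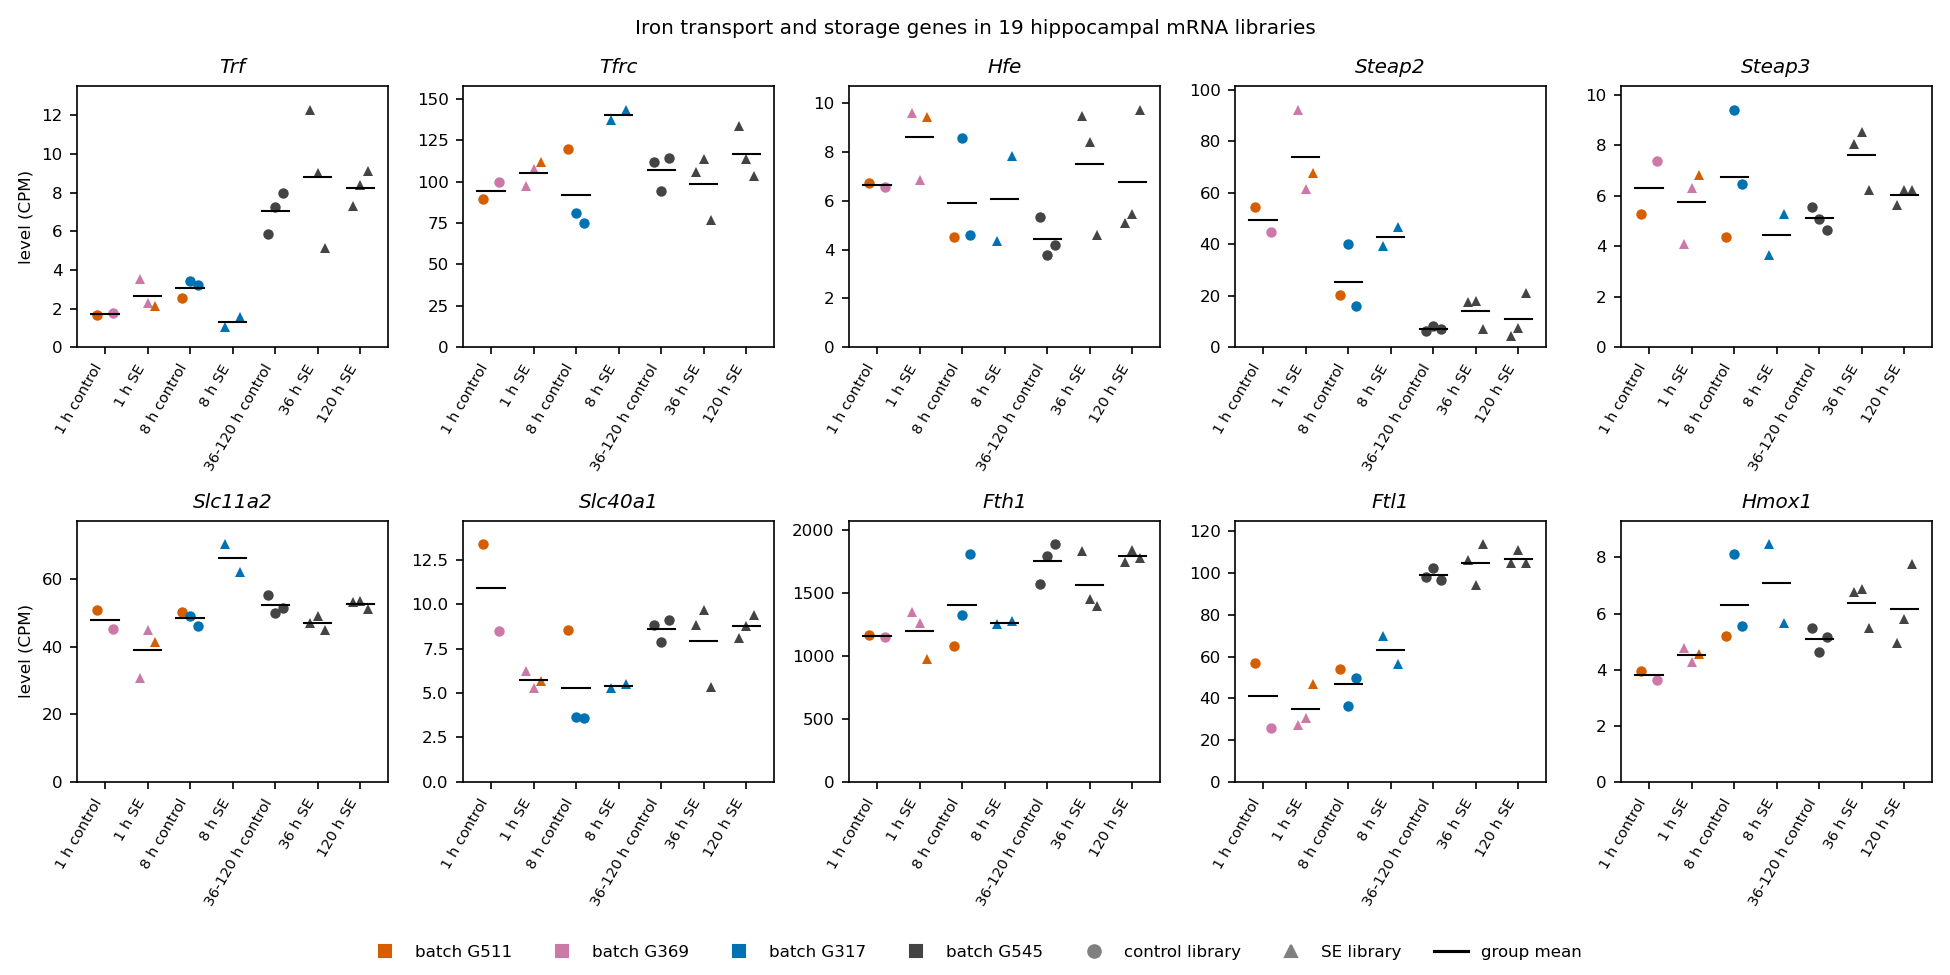
Level of each gene (CPM, axes from 0) in each of the 19 libraries by group, with circles for controls, triangles for SE, colours for the labelled batches and a bar at the group mean. Trf and Ftl1 sat higher in batch G545 than in the earlier batches, Steap2 sat lower there, and Tfrc and Slc11a2 were highest in the 8 h SE libraries.

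None of the 10 genes passed edgeR's quasi-likelihood test with Benjamini-Hochberg adjustment over all genes tested at any of the 4 times. In that test 0.0799% of genes were called at 1 h, 0.0% at 8 h, 0.0252% at 36 h, with 0.0563% at 120 h, so few genes of any kind passed. The likelihood ratio test, the test the study used, called 0.424%, 0.57%, 0.789% and 0.475% of genes and DESeq2 0.387%, 0.633%, 0.637% and 1.34%, again with 0 members, although DESeq2 gave no adjusted p for Trf, Hfe, Steap3 and Hmox1 at 120 h. At an unadjusted p under 0.05 the members numbered 2 at 1 h, 3 at 8 h, 3 at 36 h, with 1 at 120 h, where 4.39%, 9.47%, 7.89% and 9.6% of all genes passed. The median log2 fold change of the 10 genes was 0.10 at 1 h, 0.10 at 8 h, 0.22 at 36 h, with 0.19 at 120 h, beside medians of all genes between -0.01 and 0.01. The SE and control libraries did not overlap for 6 members at 1 h, 4 at 8 h, 3 at 36 h, with 2 at 120 h, and the shares over all genes were 18.5%, 28.0%, 14.3% and 15.4%.

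**Figure D2:**
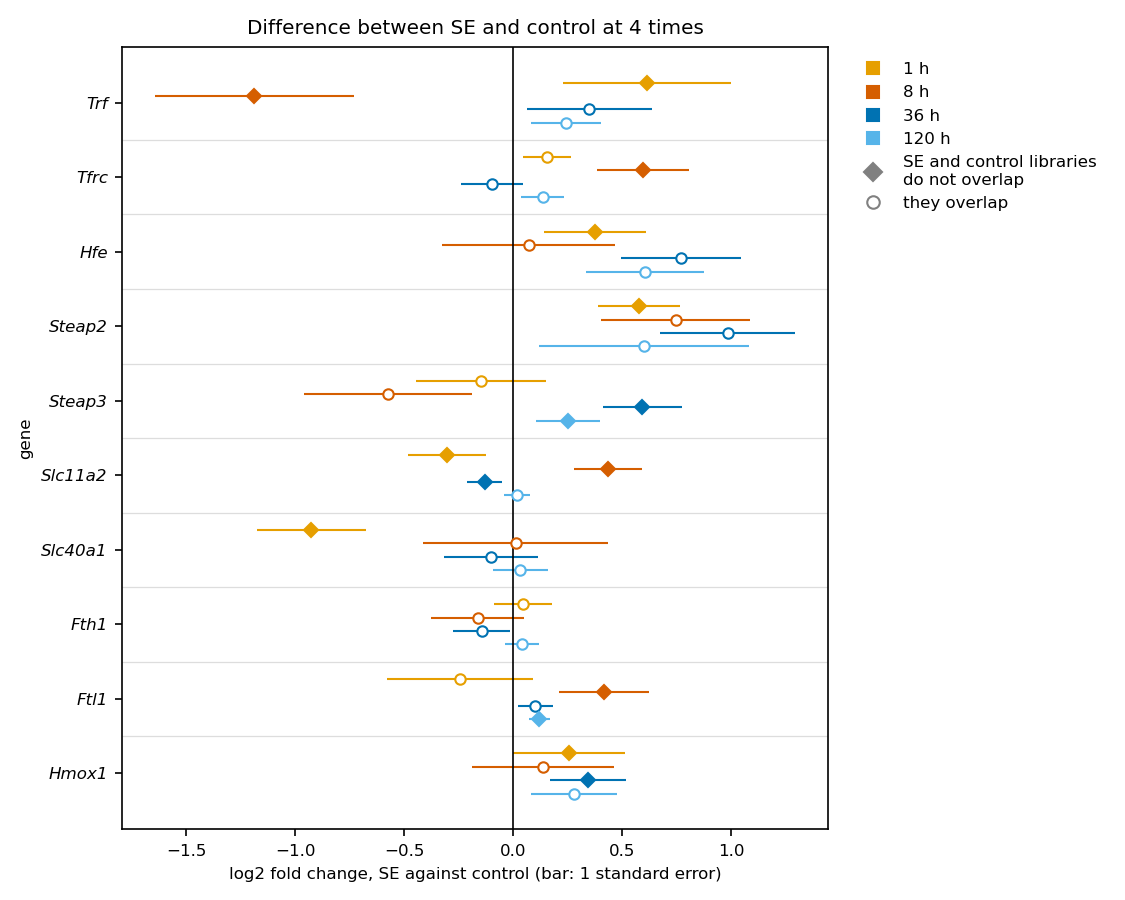
Log2 fold change of each gene in SE against control at each of the 4 times with 1 standard error, filled where the libraries of both groups did not overlap. Trf and Slc40a1 hold the most negative values, -1.19 at 8 h and -0.93 at 1 h, and Steap2 the most positive, 0.98 at 36 h.

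Trf encodes transferrin, the carrier of ferric iron, which in brain is made largely by oligodendrocytes and choroid plexus. At 8 h its level was 2.53, 3.45 and 3.23 CPM in the controls against 1.06 and 1.56 CPM in SE, so the groups did not overlap and SE was lower. The log2 fold change was -1.19 ± 0.46 (standard error, as for every fold change given with ± here), and it did not pass the quasi-likelihood test (adjusted p = 0.501). The lower SE library rested on 9 counts, and within batch G317 the difference in log2 CPM was -1.34.

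At 1 h the direction was the other way, with 1.69 and 1.77 CPM in the controls and 3.55, 2.29 and 2.13 CPM in SE. These groups did not overlap either, and the log2 fold change of 0.61 ± 0.38 had an adjusted p of 0.999 in edgeR's quasi-likelihood test. The SE library of 3.55 CPM was the one with the most choroid plexus markers, 5975 CPM. Without it the value was 0.35 ± 0.34, and with the mean log2 CPM of those markers as a covariate it was 0.17 ± 0.52. Every SE library of 1 h lay above the controls in that mean, so the fit cannot tell the markers from an SE effect.

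In batch G545 the Trf level was 5.88, 7.24 and 8.00 CPM in the controls, 12.3, 8.998 and 5.15 CPM at 36 h and 7.29, 8.38 and 9.13 CPM at 120 h. The G545 controls all lay above every library of 1 h and 8 h, and for this step time and batch cannot be told apart. The oligodendrocyte markers were lower with Trf at 8 h, where their summed level was 8501 to 9260 CPM in controls and 6621 to 7823 CPM in SE, 13 of 15 had a negative log2 fold change, and the median was -0.32. Negative values at 8 h were also held by 10 of 12 microglia and 7 of 8 neuron markers. For the other lists it was 6 of 11 endothelial, 4 of 7 astrocyte, 3 of 5 erythroid, 0 of 3 other myeloid and 1 of 16 choroid plexus markers. The oligodendrocyte markers were also lowest, at 5504 CPM, in 36 h SE replicate 3, the late library with the least Trf. At 36 h all 15 of them had a negative log2 fold change, with a median of -0.26, while that of Trf was positive. The 3 late libraries with the most Trf were those with choroid plexus markers above 5000 CPM. With the covariate the log2 fold change at 36 h went from 0.35 ± 0.29 to -0.39 ± 0.26, a value that rests mainly on SE replicate 3. The part of the oligodendrocyte markers in the Trf values was not tested.

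A second gene model named Trf overlaps the counted one on the same strand of chromosome 9. It shares 63.7% of the exon bases of the counted model and has 0 counts in every library. How the counting treated reads that fall on both models is not given in the sources used here, so the Trf levels are uncertain, and the part of the overlap in them was not tested.

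Tfrc encodes the receptor that takes up iron-laden transferrin. At 8 h its level was 120, 81.1 and 75.0 CPM in the controls and 137 and 143 CPM in SE. Both SE libraries lay above every other library of the series, and the control of 120 CPM was the single one from batch G511. Its log2 fold change of 0.60 ± 0.21 had an adjusted p of 0.495 in edgeR's quasi-likelihood test, with an unadjusted p under 0.05.

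With batch as a covariate the value at 8 h was 0.84 ± 0.11 with an adjusted p of 0.000765, and without control replicate 1 it was 0.83 ± 0.11 with an adjusted p of 0.00114 (edgeR). Batch G511 held only that control at 8 h, so both fits make nearly the same comparison. Tfrc and Slc11a2 were the 2 members called in each of these fits, which called 13.5% and 13.4% of all genes, so that 2 of 10 is read against those shares. At the other times Tfrc lay between 76.5 and 133 CPM, and its log2 fold changes of 0.15 at 1 h, -0.10 at 36 h, with 0.14 at 120 h came with overlapping groups.

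Hfe encodes a class I-like membrane protein that binds the transferrin receptor. At 36 h its level was 9.48, 8.40 and 4.58 CPM in SE against 5.32, 3.78 and 4.202 CPM in the controls, and the log2 fold change was 0.77 ± 0.28 (edgeR quasi-likelihood adjusted p = 0.530). At 120 h SE replicates 1 to 3 had 5.10, 5.48 and 9.73 CPM. The 3 high libraries were those with choroid plexus markers above 5000 CPM, and the other 3 SE libraries reached at most 5.48 CPM, near the highest control. With the choroid plexus covariate, the log2 fold change was 0.09 ± 0.26 at 36 h and 0.25 ± 0.19 at 120 h. Those values rest mainly on the SE libraries poor in the markers. At 1 h Hfe was 6.71 and 6.56 CPM in the controls and 9.58, 6.86 and 9.44 CPM in SE, higher without overlap. The log2 fold change was 0.38 ± 0.23 with an adjusted p of 0.999 in the same test. With the covariate the Hfe value was 0.17 ± 0.33, in a fit that cannot tell the markers from SE at that time. At 8 h its log2 fold change was 0.07 ± 0.40 and the groups overlapped.

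Steap2, a metalloreductase of endosomes and the cell surface, showed the same split more strongly. At 36 h the SE libraries had 17.5, 17.8 and 7.04 CPM and the controls 6.404, 8.28 and 7.10 CPM. At 120 h they had 4.33, 7.55 and 21.1 CPM. At both times the libraries rich in choroid plexus markers were above every control, and the others lay among the controls or below them.

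The log2 fold change of Steap2 was 0.98 ± 0.31 at 36 h (edgeR quasi-likelihood adjusted p = 0.457, with an unadjusted p under 0.05) and 0.60 ± 0.48 at 120 h (adjusted p = 0.735). With the choroid plexus covariate it was 0.02 ± 0.19 at 36 h and -0.26 ± 0.23 at 120 h. At 36 h the covariate takes up the libraries rich in the markers, so the value rests mainly on SE replicate 3. That replicate alone against the 3 controls, nearly the same comparison, gave -0.04 ± 0.22 at 36 h. The latter fit takes its spread from the controls. Without SE replicate 3 the value was 1.31 ± 0.14 with an adjusted p of 0.000405 in edgeR's quasi-likelihood test. In that fit 3 members, Hfe, Steap2 and Steap3, and 2.9% of all genes were called.

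At 1 h, where every library held the choroid plexus markers, Steap2 was 54.5 and 44.7 CPM in the controls and 92.3, 61.5 and 67.8 CPM in SE. SE was higher without overlap, and the log2 fold change was 0.58 ± 0.19 (edgeR quasi-likelihood adjusted p = 0.976, with an unadjusted p under 0.05). The within-batch differences in log2 CPM were 0.75 in G369, with 1 control and 2 SE libraries, and 0.32 in G511, with 1 of each. With the covariate the value was 0.13 ± 0.17, in a fit that cannot tell the markers from an SE effect at 1 h. The SE library with the most Steap2 was also the one with the highest summed marker level, 5975 CPM, and the median log2 fold change of the markers at 1 h was 0.52, positive in 15 of 16.

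At 8 h the Steap2 levels were 20.3, 40.0 and 16.2 CPM in the controls and 39.4 and 46.6 CPM in SE, which overlapped. The control of 40.0 CPM was the one whose summed choroid plexus markers, 4136 CPM, were the highest of that time. On the log2 scale the fold change was 0.75 ± 0.34 without the covariate and 0.33 ± 0.29 with it. The summed choroid plexus markers did not order every library. Those of G545 with over 5000 CPM of them reached at most 21.1 CPM of Steap2, below every 1 h library. The sum in those libraries was mainly Ttr. By the mean log2 CPM of the markers they stood at 5.516, 5.474 and 5.676, beside 5.498 to 6.446 at 1 h. Batch also differs between the G545 and the 1 h libraries.

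**Figure D3:**
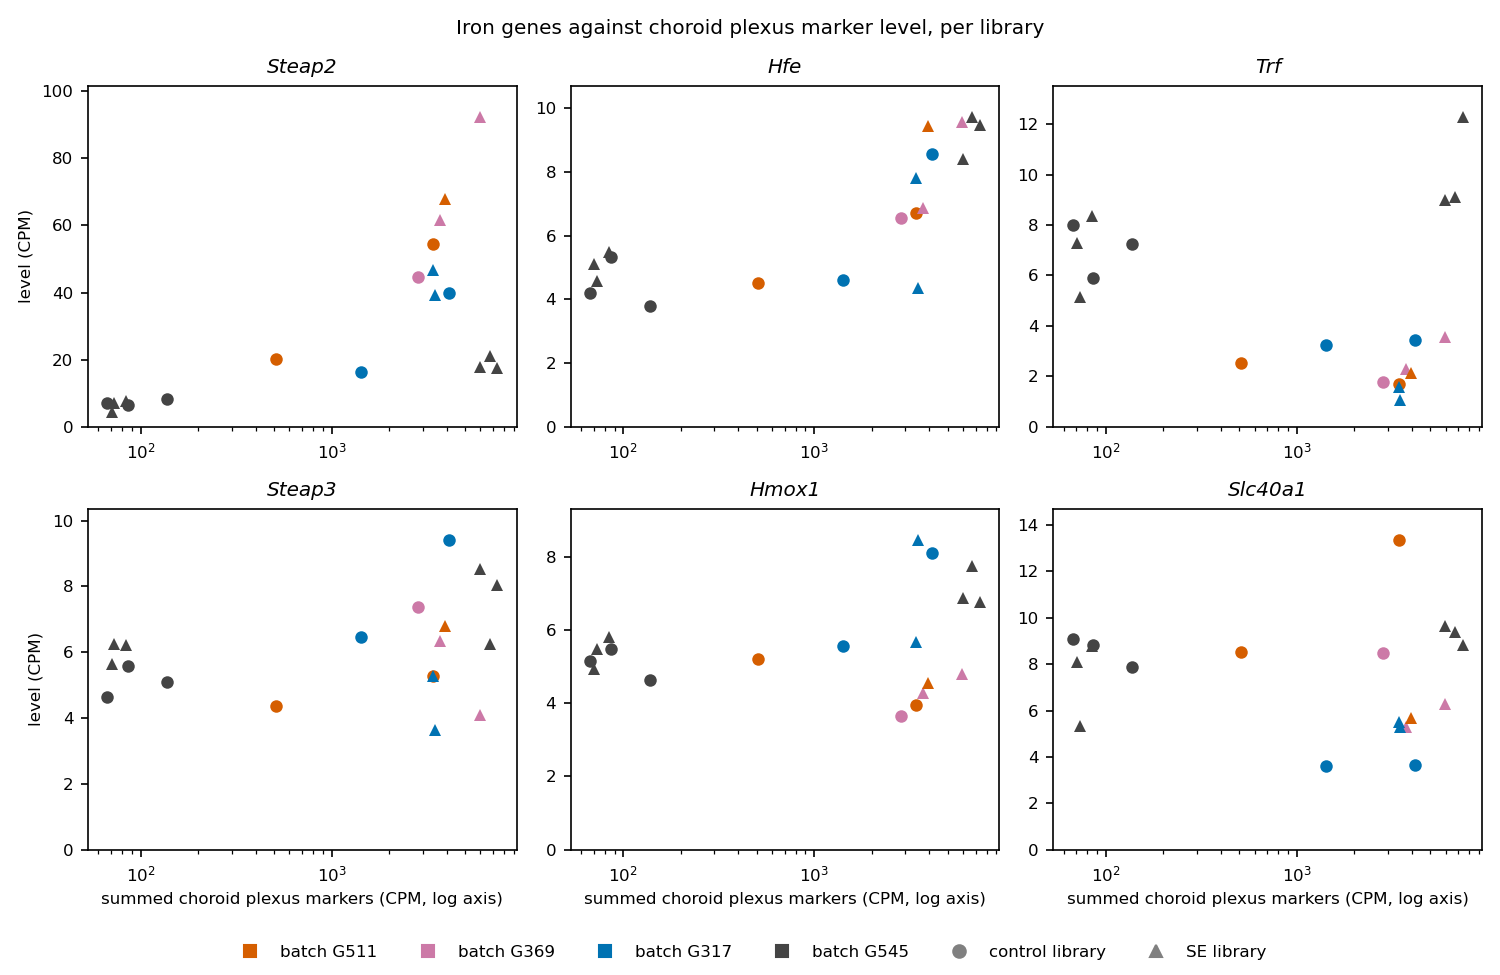
Level of Steap2, Hfe, Trf, Steap3, Hmox1 and Slc40a1 (CPM, axes from 0) against the summed level of 16 choroid plexus markers (CPM, log axis), 1 point per library, coloured by batch. In batch G545 the 3 SE libraries with over 5000 CPM of markers held 17.5 to 21.1 CPM of Steap2, and the other 6 libraries 4.33 to 8.28 CPM.

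Steap3 encodes the endosomal ferrireductase of the transferrin cycle, best known in red cell precursors. At 36 h it was 8.05, 8.53 and 6.24 CPM in SE and 5.58, 5.09 and 4.65 CPM in the controls. SE was higher without overlap, also in replicate 3, whose choroid plexus markers were at the control level. Its log2 fold change was 0.59 ± 0.18 with the smallest p of the members at that time and an adjusted p of 0.428 in edgeR's quasi-likelihood test.

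Without SE replicate 3 the Steap3 value was 0.72 ± 0.17 and passed with an adjusted p of 0.0472 in the same test. With the choroid plexus covariate, where it rests mainly on that replicate, it was 0.31 ± 0.21. At 120 h the SE libraries, 5.65, 6.22 and 6.24 CPM, again lay above the same 3 controls, with a log2 fold change of 0.25 ± 0.15 (adjusted p = 0.625). At 8 h the order was turned, with 3.64 and 5.28 CPM in SE and 4.37, 9.41 and 6.45 CPM in the controls, and the groups overlapped. The log2 fold change there was -0.57, or -0.26 without the control of 9.41 CPM, the library with the most choroid plexus markers of that time, and -0.96 ± 0.41 with the covariate.

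Slc11a2 encodes the divalent metal transporter that moves ferrous iron out of the endosome. Its 8 controls lay between 45.2 and 55.5 CPM. At 8 h it was 50.3, 49.3 and 46.3 CPM in the controls and 70.4 and 62.3 CPM in SE, the highest levels of the series, and the groups did not overlap. Its log2 fold change of 0.44 ± 0.16 had an adjusted p of 0.495 in edgeR's quasi-likelihood test.

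With batch as a covariate the Slc11a2 value at 8 h was 0.46 ± 0.13 with an adjusted p of 0.0384, and without control replicate 1 the adjusted p was 0.0388. As for Tfrc, both fits make nearly the same comparison. The call changed while the fold hardly moved, and the difference within G317 was 0.47. At 1 h the SE libraries, 30.7, 45.0 and 41.4 CPM, lay below the controls, 51.1 and 45.2 CPM, with 45.01 against 45.22 CPM at the closest pair, and the log2 fold change was -0.30 ± 0.18. Without the SE library of 30.7 CPM, the one with the most choroid plexus markers, it was -0.15 ± 0.14, and with the covariate -0.08 ± 0.24. The latter fit cannot tell the markers from an SE effect at 1 h. At 36 h the SE libraries, 47.2, 49.1 and 45.2 CPM, lay below the controls, 55.5, 50.1 and 51.5 CPM, with -0.13 ± 0.08. At 120 h the log2 fold change was 0.02 ± 0.06, and none of the values at 1 h, 36 h and 120 h passed the test. An antisense model, Gm5475, covers 6.33% of the exon bases of Slc11a2 and held 12 counts in all libraries together.

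Slc40a1 encodes ferroportin, the exporter whose 5′ UTR holds 1 of the hairpins shown above. At 1 h its level was 13.4 and 8.48 CPM in the controls and 6.27, 5.28 and 5.68 CPM in SE. Every SE library lay below both controls, the log2 fold change was -0.93 ± 0.25, and its p was the smallest of the members at that time, with an adjusted p of 0.841 in edgeR's quasi-likelihood test. SE was lower within both batches, with differences of -0.56 in G369 and -1.23 in G511 on the log2 CPM scale. Those rest on 1 control and 2 SE libraries in G369 and on 1 control and 1 SE library in G511. Leaving out each library in turn gave values between -1.22 and -0.57, and the choroid plexus covariate gave -1.28 ± 0.31. The covariate fit has the limit given above for 1 h.

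At 8 h the batches parted the Slc40a1 controls, with 8.52 CPM in the G511 library and 3.64 and 3.62 CPM in the G317 libraries. The SE libraries, 5.29 and 5.50 CPM, lay between them, so the log2 fold change of 0.01 ± 0.43 pooled 2 control levels, and within G317 it was 0.56. At 36 h SE replicate 3 had 5.32 CPM beside 8.82 and 9.66 CPM in replicates 1 and 2 and 7.89 to 9.10 CPM in the controls. At 120 h SE lay between 8.11 and 9.40 CPM, overlapping the controls.

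Fth1 encodes the ferritin heavy chain, which oxidises ferrous iron for storage. Its level was 1155 to 1169 CPM in the 1 h controls, 1082 to 1815 CPM in the 8 h controls and 1571 to 1888 CPM in the late controls, and SE ran from 977 CPM at 1 h to 1844 CPM at 120 h. The groups overlapped at each time. Fold changes on the log2 scale were 0.04 ± 0.13 at 1 h, -0.16 ± 0.21 at 8 h, -0.14 ± 0.13 at 36 h, with 0.04 ± 0.08 at 120 h, each within 2 standard errors of 0. Fth1 has a processed copy in the annotation, Fth-ps2, with 62 counts over all libraries, and reads of such copies may be split in the counting.

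Ftl1 encodes the light chain, which helps form the iron core. At 1 h its level differed by batch, with 56.8 CPM in the control and 46.7 CPM in the SE library of G511, and 25.8 CPM in the control and 27.1 and 30.8 CPM in the SE libraries of G369. The pooled log2 fold change was -0.24 ± 0.34, and the within-batch values were 0.17 in G369 and -0.28 in G511. In G545 all 9 libraries lay between 94.4 and 114 CPM, above every library of the other batches.

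At 8 h Ftl1 was 54.2, 36.5 and 49.8 CPM in the controls and 69.8 and 56.6 CPM in SE, higher without overlap, with a log2 fold change of 0.42 ± 0.21 (edgeR quasi-likelihood adjusted p = 0.566). With the choroid plexus covariate that value was 0.69 ± 0.24, and without the control of 36.5 CPM it was 0.27 ± 0.23. At 120 h Ftl1 was 105, 111 and 105 CPM in SE against 98.2, 103 and 96.8 CPM in the controls. These groups did not overlap either, and with a log2 fold change of 0.12 ± 0.05 Ftl1 was the 1 member with an unadjusted p under 0.05 at 120 h (edgeR quasi-likelihood adjusted p = 0.485). Its copy Ftl2 held 39 counts over all libraries, and here too reads of such copies may be split in the counting. A microRNA model on the same strand, AC151602.1, covers 8.13% of the exon bases of Ftl1 and held 0 counts. How reads on both models were counted is not given in the sources used here. The Ftl1 levels are therefore uncertain, and the part of the overlap in them was not tested.

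The ratio of the Fth1 to the Ftl1 mRNA level per kb was taken within each library, and it does not report the balance of the protein chains. It also carries the counting limits given above for both genes. It was 30.9 to 32.4 in the 3 libraries of G511, 63.6 to 77.2 in the 3 of G369 and 19.04 to 30.2 in the 9 of G545, with control and SE libraries mixed in each. In G317 it was 56.2 and 56.4 in the controls and 27.8 and 34.9 in SE, a difference between 2 libraries a group for which no test was run.

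Hmox1 encodes haem oxygenase 1, which frees iron from haem and is induced by oxidative stress. At 1 h it was 3.95 and 3.64 CPM in the controls and 4.79, 4.28 and 4.54 CPM in SE, and at 36 h 5.49, 4.63 and 5.15 CPM in the controls and 6.78, 6.87 and 5.49 CPM in SE. SE was higher without overlap at both times, with 5.494 against 5.489 CPM at the closest pair at 36 h. The log2 fold changes were 0.26 ± 0.26 at 1 h, 0.14 ± 0.32 at 8 h, 0.34 ± 0.17 at 36 h, with 0.28 ± 0.20 at 120 h, and none had an unadjusted p under 0.05. In the late batch the 3 libraries above 6 CPM were again those with choroid plexus markers above 5000 CPM. With the covariate the values were 0.13 ± 0.37 at 1 h, 0.14 ± 0.22 at 36 h, with 0.08 ± 0.17 at 120 h. Those fits have the limits given above for each time.

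The change of the SE effect from one time to the next was tested in 1 fit of all 19 libraries, in which 0.149% of genes were called between 8 h and 1 h, 0.144% between 36 h and 8 h and 0.0804% between 120 h and 36 h, with 0 members each. The contrasts of 8 h with 1 h and of 36 h with 8 h also compare batches, so that time and batch cannot be told apart there. That of 120 h with 36 h lies within batch G545, and its times share their controls. Slc11a2 came closest, with an effect 0.75 ± 0.19 higher at 8 h than at 1 h (edgeR quasi-likelihood adjusted p = 0.135). The likelihood ratio test called this 1 member, with an adjusted p of 0.0490, where 0.735% of genes were called. From 8 h to 36 h and from 36 h to 120 h that test called 0 members beside 1.14% and 0.241% of genes.

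In the contrasts of 8 h with 1 h and of 36 h with 8 h, though not of 120 h with 36 h, Trf had the largest fitted differences among the 10. Its effect was 1.77 ± 0.50 lower at 8 h than at 1 h on the log2 scale and 1.48 ± 0.45 higher at 36 h than at 8 h, with edgeR quasi-likelihood adjusted p-values of 0.175 and 0.170. The Tfrc effect was 0.73 lower at 36 h than at 8 h on the same scale (adjusted p = 0.193). Without 8 h control replicate 1, the single G511 library at 8 h, the contrast of 8 h and 1 h called 3 members, Trf, Slc11a2 and Slc40a1, beside 6.8% of all genes, and that of 36 h and 8 h called 4, Trf, Tfrc, Steap3 and Slc11a2, beside 11.4%.

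The wider pathway was read from a list of 49 other genes of iron handling, of which 42 passed the count filter at 1 h, 44 at 8 h and 41 at each later time. The quasi-likelihood test called 0 of them at each time. The likelihood ratio test called 1 higher at 8 h and 1 higher at 36 h and none lower, where 0.57% and 0.789% of all genes were called. The median log2 fold change of the list was 0.12 at 1 h, 0.17 at 8 h, 0.06 at 36 h, with 0.03 at 120 h, beside medians of all genes between -0.01 and 0.01.

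The gene called at 8 h was Lcn2, which encodes a lipocalin that binds iron-carrying siderophores and is made in acute inflammation. It had 6, 1 and 1 counts in the controls and 25 and 118 counts in SE, or 0.423, 0.0932 and 0.0978 CPM against 2.94 and 4.27 CPM. The log2 fold change was 3.98 ± 0.69, with adjusted p-values of 5.87e-06 in the likelihood ratio test and 0.240 in the quasi-likelihood test. Its level was at most 0.441 CPM at 36 h and 0.384 CPM at 120 h, where it was too low to be tested.

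The gene called at 36 h was Slc7a11, the cystine importer that feeds glutathione synthesis and holds back ferroptosis, a form of cell death driven by iron. It was 47.5, 49.0 and 37.3 CPM in SE and 35.2, 29.5 and 28.5 CPM in the controls. SE was higher without overlap, also in replicate 3, whose choroid plexus markers were at the control level, with a log2 fold change of 0.54 ± 0.13 and adjusted p-values of 0.0374 in the likelihood ratio test and 0.352 in the quasi-likelihood test.

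Of the other pathway genes with the smallest p at each time, none passed either edgeR test. At 1 h Alas2, the first enzyme of haem synthesis in red cell precursors, had 3.87 CPM in SE and 1.28 CPM in controls on average, and the log2 fold change was 1.58 ± 0.44. The erythroid markers, Alas2 among them, summed to 92.4 to 159 CPM in these SE libraries and 40.5 to 91.9 CPM in the controls, and 5 of the 5 tested had positive values. Their part in the Alas2 value was not tested. Bmp6, the signal for hepcidin in liver, was at 0.72 ± 0.21, Aifm2, a suppressor of ferroptosis, at 0.68 ± 0.24 and Lpcat3, a phospholipid-remodelling enzyme, at -0.46 ± 0.22.

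At 8 h the further genes were Tmprss6, a protease that restrains hepcidin, at 2.17 ± 0.65, the metal importer Slc39a14 at 0.47 ± 0.17 and the heat shock protein Hspb1 at 0.98 ± 0.39. Tmprss6 had 3, 5 and 6 counts in the 8 h controls and 16 and 52 in SE. It varied widely within other groups, with 0, 4 and 115 counts in the 1 h SE libraries and 2, 9 and 46 in the 36-120 h controls. At 36 h the further genes were Blvrb, a biliverdin reductase, at 0.43 ± 0.14, Bmp6 at 1.20 ± 0.41 and Hspb1 at 0.92 ± 0.34. Bmp6 was 11.7, 9.73 and 3.66 CPM in SE and Hspb1 7.33, 6.47 and 3.15 CPM, so that the libraries rich in choroid plexus markers were high and replicate 3 lay within the control ranges of 2.74 to 5.23 and 2.09 to 3.92 CPM.

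At 120 h the genes were Acsl4, which makes membrane lipids prone to peroxidation, at -0.29 ± 0.07, the quinone reductase Nqo1 at 0.73 ± 0.27, the iron-regulatory protein gene Aco1 at 0.14 ± 0.07 and the haem transporter Slc48a1 at 0.12 ± 0.07. Nqo1 was 3.78, 4.56 and 7.69 CPM in SE and 3.13 to 3.40 CPM in the controls, and its highest library was the one rich in choroid plexus markers. By role, the list at 8 h had positive values in 7 of 9 genes of metal uptake and reduction, 2 of 2 ferroxidases, 6 of 6 iron-regulatory and hepcidin genes, 3 of 7 genes of iron chaperones and ferritin turnover, 5 of 10 haem genes and 4 of 10 of Nrf2 and ferroptosis, beside 7664 of 15610 of all genes.

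**Figure D4:**
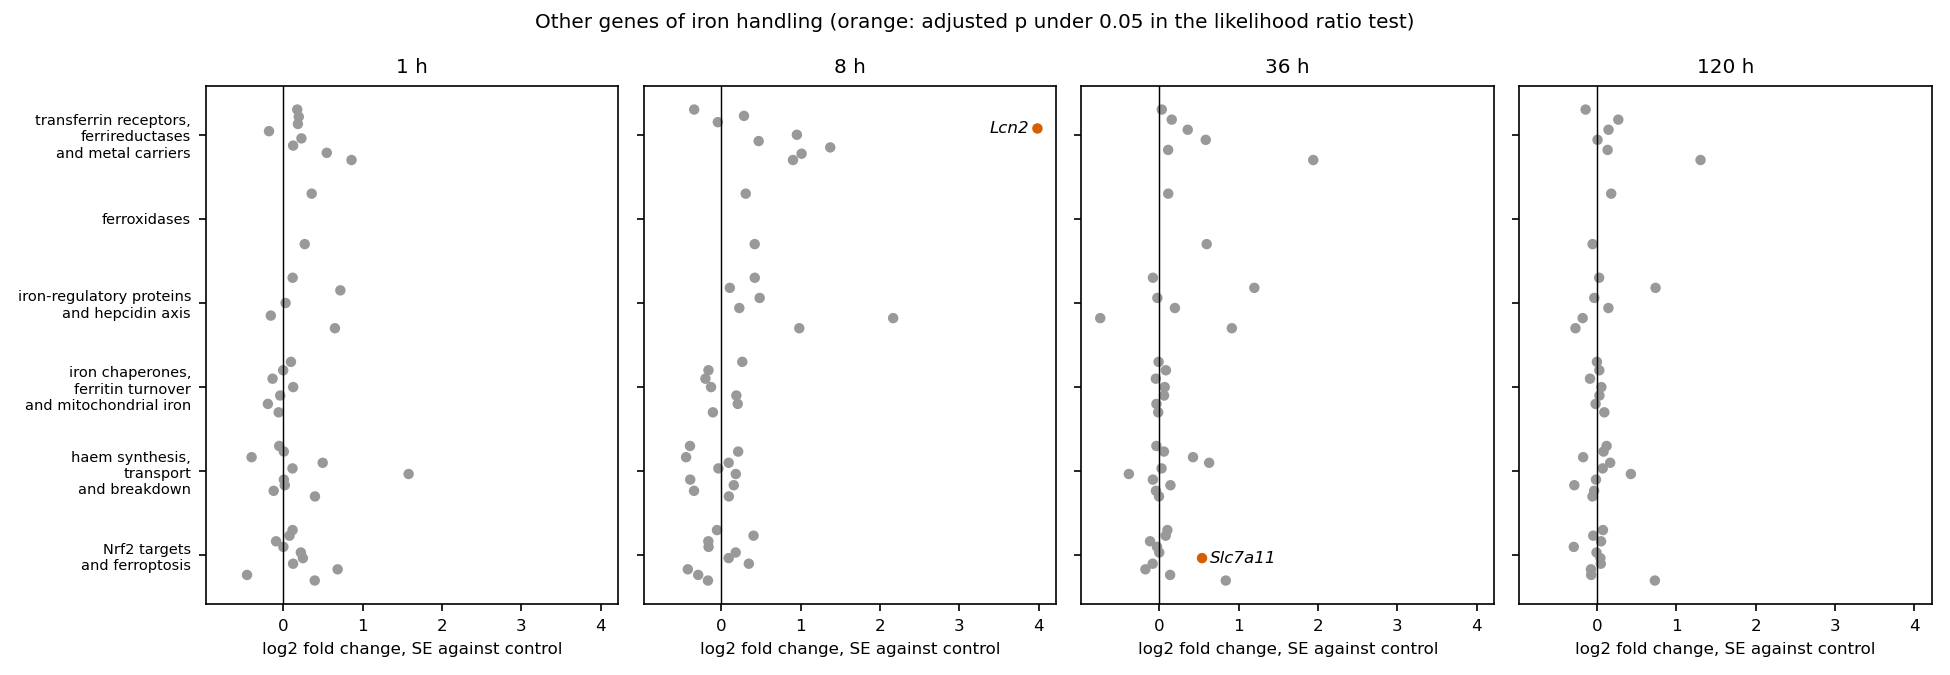
Log2 fold change in SE against control of each tested gene of the list of other iron genes, 1 point per gene, by role (rows) and time (panels), orange where the likelihood ratio test gave an adjusted p under 0.05. Lcn2 at 8 h and Slc7a11 at 36 h are the 2 called genes, at 3.98 and 0.54.

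The genes whose pattern was most like that of each member were found by Pearson's r of log2 CPM, less the mean of the controls set against that time, over 19 libraries and 11658 genes of at least 5 CPM on average. The libraries share batches and controls, so the values are a description. Nearest to Trf were Myo1d (r = 0.894), Cat (0.887) and mt-Nd1 (0.887), and nearest to Tfrc were Zdhhc20 (0.936), Actr3 (0.918) and Lrrc58 (0.91). For Hfe they were Fhad1 (0.943), Iqub (0.909) and Sfrp1 (0.907), and for Steap2 Eps8l2 (0.944), Trpm3 (0.944) and Col8a2 (0.929).

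For Steap3 the nearest were Zdhhc1 (0.886), Morn1 (0.853) and Mov10 (0.842), for Slc11a2 Med20 (0.924), Vars (0.902) and Ddx55 (0.9), and for Slc40a1 Tmem188 (0.931), Kitl (0.927) and Gtf2a2 (0.925). For the ferritins they were Ufd1l (0.885), Brp44 (0.847) and Cript (0.837) with Fth1, and 1110014N23Rik (0.925), Eef2 (0.915) and Neil1 (0.892) with Ftl1. For Hmox1 they were Abhd2 (0.853), Ezr (0.842) and the pathway gene Bmp6 (0.84). No member was among the nearest genes of another.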

How the data were processed

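The authors deposited whole-number counts of reads per Ensembl gene for each library. Per the study's methods, reads were trimmed with BBDuk, aligned to NCBIM37 with HISAT2 2.1.0 and counted with HTSeq on Ensembl annotation, whose release may differ from that stated, since the table holds identifiers later than it. Small RNA libraries were not used here. Symbols, exon lengths and coordinates came from GENCODE M1, which named 33068 of 43629 identifiers, so CPM per kb depends on that annotation. Counts were filtered with filterByExpr, scaled by TMM and tested with edgeR 4.0.16 (R 4.3.3) by the quasi-likelihood test within each time, adjusted by Benjamini-Hochberg over all genes, threshold 0.05, and tested on simulated data. Contrasts between times used 1 fit of all 19 libraries. Printed levels are CPM, and log2 CPM has a prior count of 1. Alternatives were the likelihood ratio test, DESeq2 1.42.0, another scaling, no filter, 1 fit of all libraries, batch, a choroid plexus covariate, a replicate block and each library left out. Members, gene lists and tests were chosen with earlier results of these data known. Named genes are the 10 members, the list's genes that passed a test or had the 4 smallest p at a time, and the 3 nearest in pattern to each member.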

Additional observations from a re-analysis of the deposited data

Results flagged for a closer look

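For 2 members the SE libraries lay wholly on one side of the controls at one time and wholly on the other side at another. Trf was lower in both SE libraries at 8 h and higher in the 3 SE libraries at 1 h, and its log2 fold changes in the separate fits differed by 1.80. In the fit of all 19 libraries this difference was tested and did not pass (edgeR quasi-likelihood adjusted p = 0.175). Slc11a2 was higher in both SE libraries at 8 h and lower in the 3 SE libraries at 1 h and at 36 h, with differences of 0.74 and 0.57 between the fits. These did not pass either, with adjusted p-values of 0.135 and 0.159. With the choroid plexus covariate the values at 1 h were 0.17 ± 0.52 for Trf and -0.08 ± 0.24 for Slc11a2, but that covariate cannot be told apart from SE at 1 h. Batch changed between these times in both genes, and batch and time cannot be told apart.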

How the results depend on the processing

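Of 645 alternative values of the members, 592 kept the direction and the side of the threshold, 19 came to pass it and 34 turned direction. The turned ones belong to 15 values, of which Steap2 at 36 h and 120 h and Trf at 36 h had exceeded 1 standard error. By test, the likelihood ratio test called 1 member in the contrast of 8 h and 1 h, and of the iron list 1 gene at 8 h and 1 at 36 h, against 0 each. Its shares over all genes were 0.735%, 0.57% and 0.789%. Without a filter 1 member (Steap2) was called at 1 h and 1 (Steap2) at 8 h, 2 in the contrast of 8 h and 1 h (Trf and Slc11a2) and 2 in that of 36 h and 8 h (Trf and Tfrc). Those fits called 1.35%, 1.41%, 1.76% and 2.73% of all genes. Batch as a covariate called 2 at 8 h (Tfrc and Slc11a2), beside 13.5% of all genes, and gave -0.010 for Fth1 at 1 h and -0.086 for Hfe at 8 h. The choroid plexus covariate gave 0.43 for Steap3 and -0.10 for Fth1 at 1 h, -0.30 for Hfe and -0.14 for Hmox1 at 8 h, -0.39 for Trf at 36 h, and -0.26 for Steap2 and -0.022 for Slc40a1 at 120 h. With 36 h SE replicates 1 and 2 left out, Trf was -0.45 and Steap2 -0.039. The cause of these shifts was not tested.

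Leaving out each library in turn called 0 members at 1 h and at 120 h, 0 to 2 at 8 h (2 without control replicate 1), 0 to 3 at 36 h (3 without SE replicate 3), and 0 to 3 and 0 to 4 in the contrasts of 8 h with 1 h and of 36 h with 8 h (the most without 8 h control replicate 1). The fits with the most members called had 13.4%, 2.9%, 6.8% and 11.4% of all genes called. The log2 fold changes that turned ran from -0.37 to 0.12 (Steap3), -0.051 to 0.17 (Fth1) and -0.71 to 0.43 (Ftl1) at 1 h, from -0.45 to 0.43 (Hfe), -0.20 to 0.56 (Slc40a1), -0.32 to 0.053 (Fth1) and -0.15 to 0.41 (Hmox1) at 8 h, from -0.21 to 0.056 (Tfrc) and -0.27 to 0.12 (Slc40a1) at 36 h, and from -0.27 to 0.99 (Steap2), -0.012 to 0.060 (Slc11a2), -0.029 to 0.093 (Slc40a1) and -0.033 to 0.10 (Fth1) at 120 h.

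The replicate numbers of the labels did not pair the libraries, since deviations of same-numbered libraries correlated between -0.24 and 0.21. A replicate block called 0 members, gave -0.11 for Hfe, -0.064 for Slc40a1 and 0.063 for Fth1 at 8 h, and called 42, 31, 12 and 1 of all genes at the 4 times. Over every alternative the genes called in the whole table numbered 3 to 328 at 1 h, 0 to 2111 at 8 h, 0 to 469 at 36 h and 0 to 144 at 120 h, against 13, 0, 4 and 9. Groups of 2 or 3 libraries and counts as low as 9 for Trf limit the precision, and the standard errors show how large a difference could be missed.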
